A study of Mus musculus with 6 samples.

Results

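Ribosome biogenesis and MYC target genes were followed as a set of 34 named genes in stimulated regulatory T cells (Tregs) from Bach2-cKO and wild-type (WT) mice. The members are the rows of the deposited expression table whose gene symbol stands in a list of MYC and nucleolar ribosome assembly factors. All 34 were found, among 49585 genes in the table, and all 34 passed the filter on low values (at least 1 FPKM in at least 3 libraries), which left 13766 genes for testing. FPKM is the number of fragments for each kilobase of a gene, relative to the size of its library. There were 3 libraries labelled Bach2-cKO, a label that stands for conditional knockout of Bach2, a transcriptional repressor gene. They were set against 3 libraries labelled WT, and all mice were of the C57BL/6 strain. In both groups CD4+ YFP+ cells without the B cell antigen B220, and with CD25 also named in the design text, were sorted from spleens of mice aged 7 weeks. The sorted cells were then held for 24 hours with antibodies to CD3 and CD28. The labels do not name the Cre driver, the deleted part of Bach2 or the source of the YFP, and they do not say whether the libraries came from separate mice, so a p-value here reflects sample-to-sample spread that may be technical.

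MYC is a basic helix-loop-helix leucine zipper transcription factor that pairs with MAX and binds the E-box CACGTG. In T cells it is known to rise after stimulation through the antigen receptor and to drive cell growth before division. Ribosome synthesis, which takes place largely in the nucleolus, is among the programmes MYC is best known to raise: RNA polymerase I transcribes the precursor of ribosomal RNA, small nucleolar ribonucleoproteins modify it, and assembly factors cut it and join it to ribosomal proteins.

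The libraries held between 27697735 and 43884431 reads, as recovered from the FPKM steps. Their correlation across genes was 0.984 to 0.989 for libraries of the same group and 0.967 to 0.976 for libraries of different groups. Bach2 averaged 104.7 FPKM in Bach2-cKO libraries and 107.6 FPKM in WT libraries; with the deleted part not known, this value does not check the labels. All 9 Treg markers listed for this comparison were above 0 in every library, and Foxp3, the lineage factor, averaged 123.2 FPKM in Bach2-cKO libraries and 116.0 FPKM in WT libraries. B cell markers were present too: their summed level over 12 genes ranged from 1733 to 2217 FPKM in Bach2-cKO libraries and from 1204 to 1677 FPKM in WT libraries, and none was at 0 in any library. Of these 12 genes, 5 rose and 0 fell (limma adjusted p under 0.05). The summed level of 6 plasma cell markers was 372.2 to 551.4 FPKM in Bach2-cKO libraries and 209.7 to 250.1 FPKM in WT libraries. Of the 5 tested, 4 rose, 0 fell and 1 did not pass. The latter was Sdc1, at a mean of 8.41 FPKM in Bach2-cKO libraries and 8.66 FPKM in WT libraries (limma adjusted p = 0.863). Tnfrsf17 was not tested and reached at most 0.336 FPKM. That of 2 CD8 T cell markers was 53.8 to 99.3 FPKM in Bach2-cKO libraries and 40.2 to 44.2 FPKM in WT libraries, and both genes rose. The 9 Treg markers, genes of the T cell receptor complex among them, summed to 2312 to 2695 FPKM in Bach2-cKO libraries and 2218 to 2602 FPKM in WT libraries; 1 rose (Il2ra, by 0.92 on the log2 scale), 2 fell (Cd3d by 0.37 and Cd3g by 0.28), and 6 did not pass. Myeloid markers, 7 genes of which 3 were tested and none passed, summed to 7.91, 49.9 and 62.8 FPKM over Bach2-cKO replicates 1 to 3, against 10.8, 14.4 and 14.0 FPKM over WT replicates 1 to 3, so that Bach2-cKO replicates 2 and 3 stood above the other libraries. The part of these other cells in the values below was not tested, and in bulk RNA fewer cells of a type and less RNA per cell cannot be told apart. Library 3 of Bach2-cKO stood apart from replicates 1 and 2 for the member genes, as described below.

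None of the 34 genes passed the test between Bach2-cKO and WT, with 0 higher and 0 lower (limma, log2 of FPKM plus a pseudocount of 1, p adjusted by Benjamini-Hochberg over all tested genes, threshold 0.05). In the same test 15.3% of all tested genes passed, 7.02% higher and 8.31% lower. At an unadjusted p under 0.05, 2 members were lower and 0 higher, against 30.8% of all tested genes in either direction. With limma-voom on recovered reads 1 member, Myc, was lower and 0 were higher. Of all 13766 tested genes, 1348 were lower and 1166 higher in that fit. The median log2 fold change of the 34 genes was -0.018, with 18 negative and 16 positive. Over all tested genes the median was -0.017 and 53.1% were negative; with median-ratio scaling of the libraries the members' median was 0.0025 and that of all tested genes 0.0025. The median size of the change, without its sign, was 0.081 for the members and 0.17 for all tested genes on the log2 scale. For 27 of the 34 genes the difference between the group means was smaller than the standard deviation within the groups.

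A missed threshold does not show that levels are alike, so the changes that the data exclude are given by the 95% interval of each log2 fold change from the same fit, not adjusted for the number of genes. These folds are of FPKM plus the pseudocount of 1, which understates changes of low genes. For all 34 members both ends of the interval lay within 2-fold and for 32 within 1.5-fold. With a pseudocount of 0.1 these counts were the same, and the farthest end was at 1.78-fold. Over all tested genes the intervals lay within 2-fold for 88.0% and within 1.5-fold for 66.0%. Among the 10113 tested genes with a mean of at least 5 FPKM, a level that every member reached, the shares were 92.2% and 77.2%. The fold at the farther end of the interval was lowest for Nob1 at 1.13, 1.24 at the median and highest for Myc at 1.75. Myc's limit is the highest since its estimate lies farthest from 0; the widest interval was that of Nop16. Myc and Bysl, at 1.75 and 1.51, were the only members whose interval reached past 1.5-fold. When a score of B cell markers was added to the fit, 17 of the 34 intervals lay within 1.5-fold and 32 within 2-fold. The farthest end was then at 2.20-fold. The markers' median deviation from their own means was 0.081, 0.39 and 0.21 over Bach2-cKO replicates 1 to 3. Over WT replicates 1 to 3 it was -0.39, 0.051 and -0.39. The score thus followed the groups, and in 6 libraries that fit can hardly tell score and group apart.

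**Figure D1:**
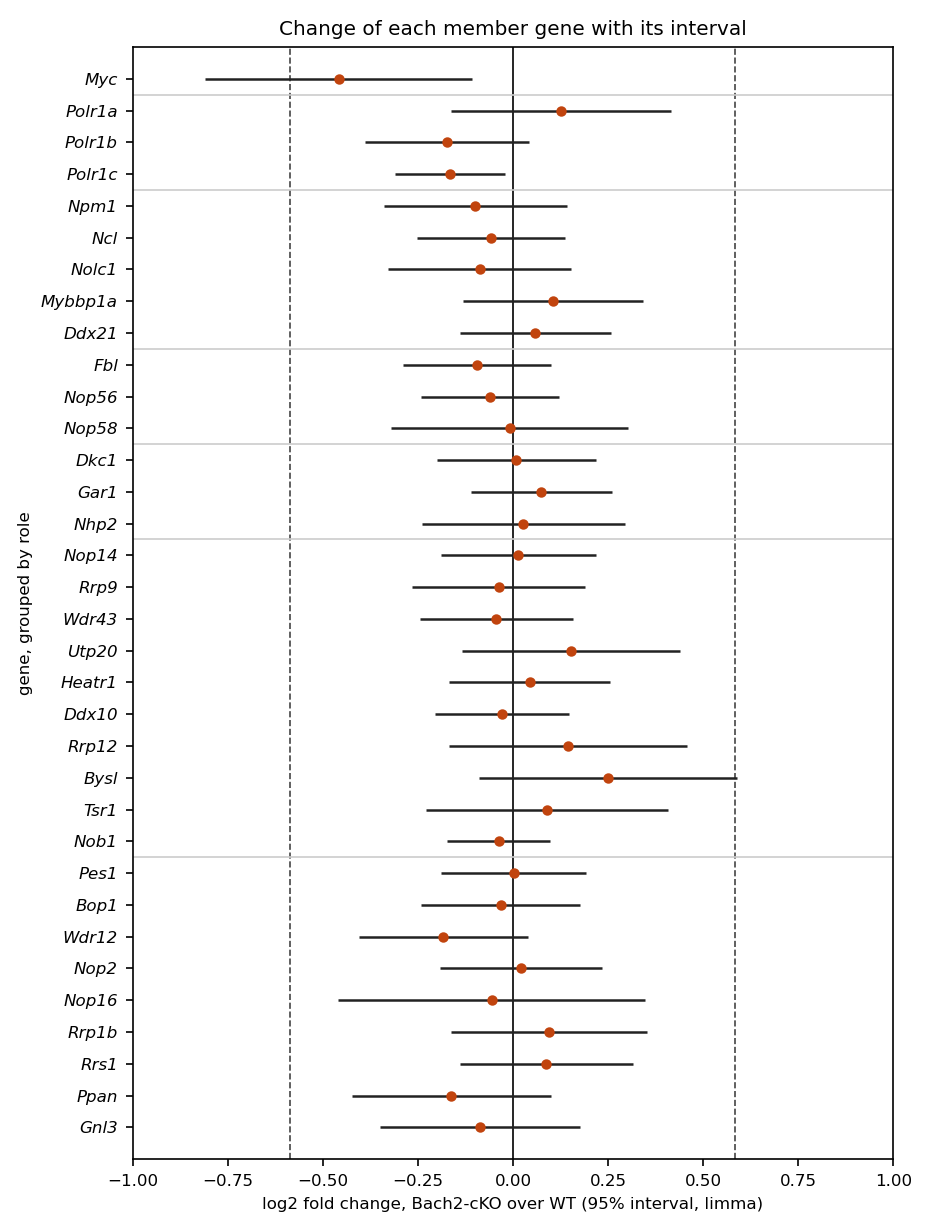
Log2 fold change of each of the 34 member genes, Bach2-cKO over WT (points), with its 95% interval from limma (bars), genes grouped by role and separated by grey lines. Dashed lines stand at 1.5-fold in each direction; 32 intervals lie within 1.5-fold and Myc lies farthest from 0.

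**Figure D2:**
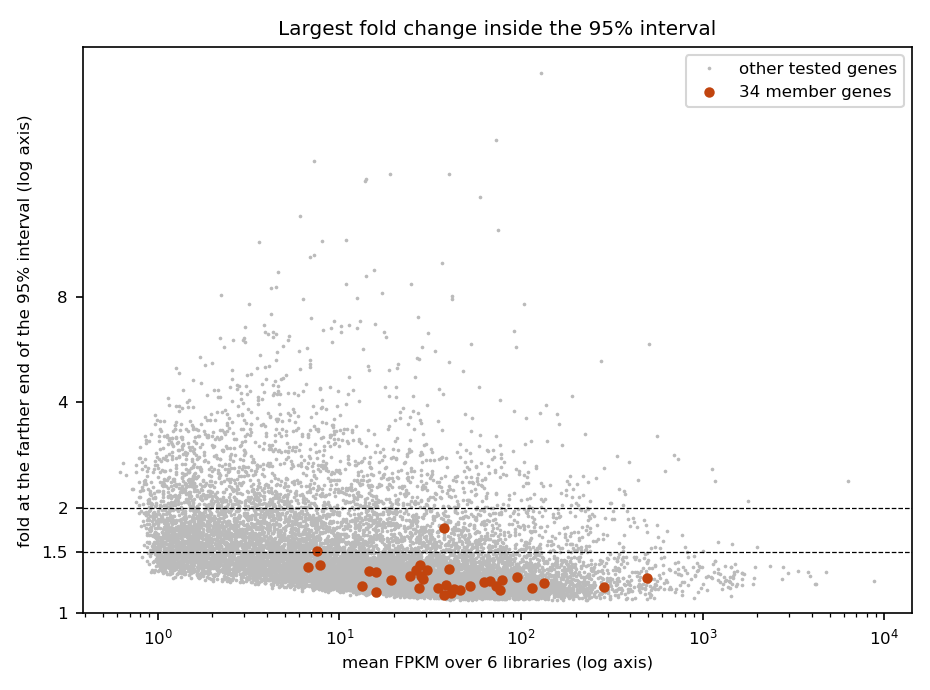
The fold at the farther end of the 95% interval against mean FPKM over the 6 libraries, both on log axes, for the 34 member genes (orange) and the other tested genes (grey). Dashed lines stand at 1.5-fold and 2-fold; all members lie under 2-fold and 32 under 1.5-fold.

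The members were measured at high levels. Their mean over the 6 libraries ran from 6.71 FPKM (Utp20) to 490.3 FPKM (Npm1), with a median of 37.7 FPKM, and each was covered by 607 to 28367 reads per library. In the ranking of all tested genes by mean FPKM, 29 of the 34 stood above the 50th percentile and 13 above the 75th. Levels are set side by side here per length, and the length behind the deposited FPKM equals, within 1 base, the mean length of the gene's GENCODE M21 transcripts for 25 of the 34 members. Ncl thus stood at 287.4 FPKM with a length of 2349 bases, but would stand at 82.3 FPKM per kilobase of its longest annotated transcript. The order of levels between genes depends on that choice; the length is the same in every library, so the comparison of groups does not.

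The largest difference between the groups was that of Myc itself. Myc (chr15:61985391-61990374, plus strand) had 38.1, 33.7 and 24.3 FPKM in Bach2-cKO replicates 1, 2 and 3, against 44.6, 41.0 and 45.5 FPKM in WT replicates 1, 2 and 3. All 3 Bach2-cKO values lay below all 3 WT values, and Bach2-cKO replicate 3 was the lowest by a wide gap. The means were 32.0 ± 7.08 FPKM in Bach2-cKO and 43.7 ± 2.35 FPKM in WT (SD, n = 3 each). The log2 fold change was -0.46 with an SE of 0.15 (limma adjusted p = 0.0823). Its interval ran from -0.81 to -0.11, which leaves out any rise and any fall of more than 1.75-fold. The call turned on the setting: the limma adjusted p was 0.0431 with voom on recovered reads, 0.0443 without Bach2-cKO replicate 1, and between 0.0616 and 0.583 in the other 14 alternatives. Without Bach2-cKO replicate 3 the log2 fold change was -0.28. The sign was negative in all 16 alternatives.

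Groups that do not overlap were found for 3 of the 34 members, Myc, Wdr12 and Polr1c, with Bach2-cKO lower in each. Over all tested genes, the groups did not overlap for 35.6%, and Bach2-cKO was the lower group for 20.1%.

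MYC acts within a network of partners and antagonists, and 11 of the 13 network genes listed for this comparison were tested. Of these 0 rose, 2 fell and 9 did not pass, with a median log2 fold change of 0.036. Both genes that fell encode MXD proteins, which compete with MYC for MAX and repress E-box genes. Mxd1 had 64.2, 53.5 and 51.1 FPKM in Bach2-cKO libraries, against 81.5, 69.1 and 81.7 FPKM in WT libraries. Its log2 fold change was -0.46 (SE 0.10, limma adjusted p = 0.0265), and the groups did not overlap. Mxd4 had 79.7, 75.1 and 88.9 FPKM in Bach2-cKO libraries, against 109.9, 99.4 and 108.8 FPKM in WT libraries. Its log2 fold change was -0.38 (SE 0.078, limma adjusted p = 0.0171), again with no overlap. Without 1 library the limma adjusted p of Mxd1 was 0.0919 (Bach2-cKO replicate 2), 0.0504 (Bach2-cKO replicate 3), 0.0986 (WT replicate 1) and 0.0749 (WT replicate 3). For Mxd4 it was 0.0582 without Bach2-cKO replicate 1, 0.0643 without Bach2-cKO replicate 2, 0.0723 without WT replicate 1 and 0.0530 without WT replicate 3. With no filter on low values it was 0.0868 for Mxd1 and 0.0549 for Mxd4, and with no intensity trend 0.0516 for Mxd1. Adding the B cell score gave 0.641 for Mxd1 and 0.510 for Mxd4.

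Max, the shared partner, averaged 84.3 ± 7.15 FPKM in Bach2-cKO libraries and 82.0 ± 0.910 FPKM in WT libraries (SD, n = 3 each; limma adjusted p = 0.775, interval of the log2 fold change -0.13 to 0.20). Mxi1, a further MXD family gene, averaged 9.52 FPKM in Bach2-cKO libraries and 11.3 FPKM in WT libraries (limma adjusted p = 0.187). Mxd3 averaged 8.42 ± 2.61 FPKM in Bach2-cKO libraries and 5.87 ± 0.825 FPKM in WT libraries (SD, n = 3 each; limma adjusted p = 0.239), and without Bach2-cKO replicate 3 its limma adjusted p was 0.0156, with a log2 fold change of 0.68. The related genes Mycn and Mycl did not pass the filter and reached at most 0.332 and 0.962 FPKM in any library.

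**Figure D3:**
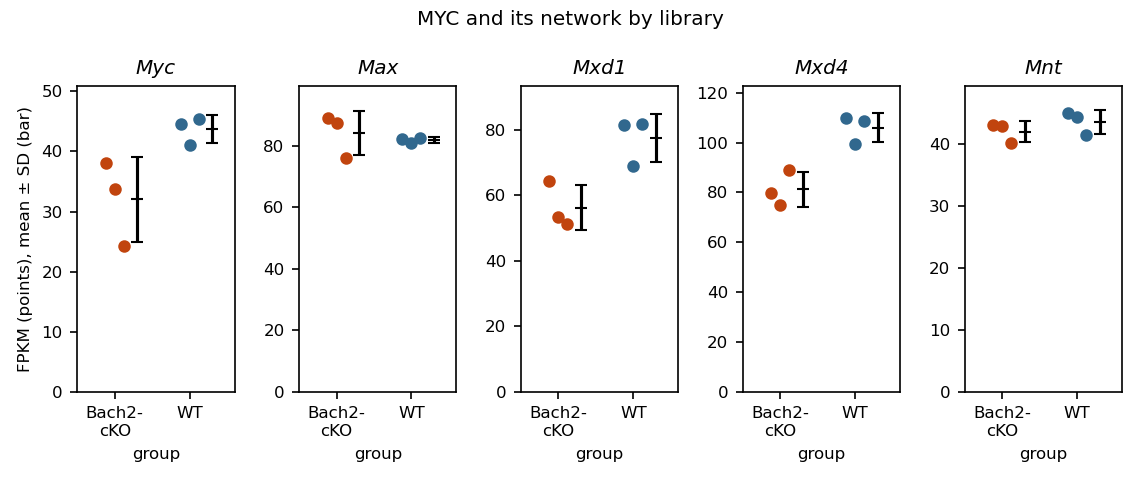
FPKM of Myc, its partner Max and the network genes Mxd1, Mxd4 and Mnt in each library (points, Bach2-cKO orange, WT blue), with the mean and SD of each group (black bars, n = 3). Mxd1 and Mxd4 have no overlap between groups and pass the test; Myc has no overlap and does not pass.

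The E-box CACGTG was looked for in the RefSeq promoter windows of the members (build GRCm38.p6, 250 bases before to 50 bases after each annotated start; the motif reads the same on both strands and was matched exactly, with no other motif sought). Of the 34 members, 28 had a window, and Bop1, Fbl, Myc, Npm1, Rrp12 and Rrs1 had none in the table used. A CACGTG stood in the window of 6 of these 28 genes (21.4%), against 11.8% of 9103 tested genes with a window and 20.7% of 87 other ribosome biogenesis genes. Over the 250 bases before the start alone the order differed, with a CACGTG in 1 of the 28 members (3.57%), against 9.88% of the tested genes and 11.5% of the other ribosome biogenesis genes. A match describes letters in a window and not a bound site. The 6 stretches are shown because they hold the letters MYC and MAX are known to bind; each is given 5′ to 3′ on the gene's strand, with the E-box in capitals and up to 12 bases on either side.
Nop2: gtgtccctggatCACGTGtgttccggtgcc
Pes1: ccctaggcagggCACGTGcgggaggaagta
Wdr43: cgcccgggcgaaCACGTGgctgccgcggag
Tsr1: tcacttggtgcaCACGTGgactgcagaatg
Utp20: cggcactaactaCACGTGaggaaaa
Mybbp1a: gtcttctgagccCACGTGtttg

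The Nop2 stretch lies at chr6:125131811-125131840 on the plus strand, and its E-box begins 60 bases before the annotated start. In the other 5 genes the E-box lies at or just after the start, with its first letter at transcribed base 3 in Pes1 (chr11:3963965-3963994, plus strand), 18 in Wdr43 (chr17:71616220-71616249, plus strand), 25 in Tsr1 (chr11:74898092-74898121, plus strand), 38 in Utp20 (chr10:88826765-88826789, minus strand) and 41 in Mybbp1a (chr11:72441355-72441376, plus strand). The log2 fold changes of these 6 genes were 0.020 for Nop2, 0.0019 for Pes1, -0.044 for Wdr43, 0.090 for Tsr1, 0.15 for Utp20 and 0.11 for Mybbp1a. None passed the test, and all 6 values lay within the range of the other members.

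Of the 3 RNA polymerase I members none passed. Polr1a, the largest subunit, had 35.0, 35.1 and 25.7 FPKM in Bach2-cKO libraries, against 30.7, 27.3 and 28.7 FPKM in WT libraries. Its groups overlapped only through Bach2-cKO replicate 3 (log2 fold change 0.13, interval -0.16 to 0.41, limma adjusted p = 0.537). Without that library Polr1a was higher, with a log2 fold change of 0.27 and a limma adjusted p = 0.0491. Polr1c, a subunit shared with RNA polymerase III, had 66.1, 65.0 and 60.3 FPKM in Bach2-cKO libraries, against 68.6, 73.9 and 72.6 FPKM in WT libraries. The groups did not overlap, the log2 fold change was -0.17 (SE 0.062, unadjusted p = 0.0299, limma adjusted p = 0.118), and a fall of more than 1.24-fold lay outside its interval. Polr1b, the second largest subunit, averaged 14.9 ± 1.52 FPKM in Bach2-cKO libraries and 16.9 ± 0.720 FPKM in WT libraries (SD, n = 3 each; limma adjusted p = 0.254).

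Of 12 other genes of RNA polymerase I and its initiation and termination factors, 0 rose, 1 fell and 11 did not pass, with a median log2 fold change of -0.039. The gene that fell was Polr1e, a further subunit, with 16.1 ± 0.527 FPKM in Bach2-cKO libraries and 19.4 ± 0.349 FPKM in WT libraries (SD, n = 3 each; log2 fold change -0.25, limma adjusted p = 0.0482). That call was lost in 12 of 16 alternatives, including each one that left out a library, where the limma adjusted p was 0.0779 to 0.143. Ubtf, the upstream binding factor of ribosomal DNA, averaged 124.7 FPKM in Bach2-cKO libraries and 113.8 FPKM in WT libraries (limma adjusted p = 0.235). The termination factor gene Ttf1 averaged 18.2 FPKM in Bach2-cKO libraries and 21.6 FPKM in WT libraries, with no overlap and a limma adjusted p = 0.0746. Taf1c, of the promoter selectivity factor, had a log2 fold change of -0.25 (limma adjusted p = 0.148).

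None of the 5 genes of abundant nucleolar proteins passed the test. Npm1, which encodes the histone and ribosome chaperone nucleophosmin, had 486.8, 510.1 and 422.8 FPKM in Bach2-cKO libraries, against 457.0, 498.4 and 566.7 FPKM in WT libraries. The 2 groups overlapped, and a fall of more than 1.26-fold or a rise of more than 1.10-fold lay outside the interval. Npm1 is known to have processed pseudogenes, so its value is uncertain where reads were shared with them. Ncl, which encodes nucleolin, had 285.5, 299.8 and 259.6 FPKM in Bach2-cKO libraries, against 275.2, 283.1 and 321.4 FPKM in WT libraries. Its bounds were a fall of 1.19-fold and a rise of 1.10-fold (log2 fold change -0.057, limma adjusted p = 0.688). Mybbp1a, a nucleolar MYB-binding protein, had a log2 fold change of 0.11, the RNA helicase gene Ddx21 of 0.059 and Nolc1, a chaperone of small nucleolar ribonucleoproteins, of -0.088. All 5 genes of this role had intervals within 1.5-fold.

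Box C/D particles, which methylate ribosomal RNA, were represented by Fbl, the methyltransferase fibrillarin, and by the core proteins Nop56 and Nop58. Fbl had 130.1, 137.0 and 119.4 FPKM in Bach2-cKO libraries, against 124.0, 146.4 and 143.1 FPKM in WT libraries, so that the groups overlapped (log2 fold change -0.095, limma adjusted p = 0.489). Nop56 averaged 111.9 ± 7.19 FPKM in Bach2-cKO libraries and 116.8 ± 9.04 FPKM in WT libraries (SD, n = 3 each). Nop58 averaged 78.0 ± 10.3 FPKM in Bach2-cKO libraries and 78.6 ± 12.7 FPKM in WT libraries. The farther end of the interval was a fall of 1.22-fold for Fbl, 1.18-fold for Nop56 and 1.25-fold for Nop58.

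Box H/ACA particles convert uridine to pseudouridine in ribosomal RNA. Dkc1, their pseudouridine synthase, had 83.5, 81.4 and 66.9 FPKM in Bach2-cKO libraries, against 74.8, 79.2 and 75.3 FPKM in WT libraries. Bach2-cKO replicates 1 and 2 were the highest of the 6 and Bach2-cKO replicate 3 the lowest (log2 fold change 0.0086, interval -0.20 to 0.22). The core proteins Gar1 and Nhp2 had log2 fold changes of 0.075 and 0.028, and their intervals ended at 0.26 and 0.30 on the log2 scale. Of 11 other genes of these particles and their assembly, 0 rose, 1 fell and 10 did not pass. The gene that fell was Rpap3, of the R2TP assembly chaperone, at 12.5 ± 0.933 FPKM in Bach2-cKO libraries and 16.7 ± 0.916 FPKM in WT libraries (SD, n = 3 each; log2 fold change -0.39, limma adjusted p = 0.0235). Its limma adjusted p was 0.0916 without Bach2-cKO replicate 2, 0.0520 without WT replicate 1, 0.0768 without WT replicate 2 and 0.0657 without WT replicate 3. It was 0.0512 when genes of low level were kept and 0.356 after the B cell score was added. The others with the smallest p in that list, Nufip1, Nop10 and Naf1, had log2 fold changes of 0.15, -0.13 and 0.15.

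Of 10 members that build the small subunit, none passed and 9 had intervals within 1.5-fold. Nob1 (chr8:107412486-107425051, minus strand), the endonuclease that makes the final cut of small subunit RNA, had 36.5, 37.2 and 37.2 FPKM in Bach2-cKO libraries, against 36.8, 39.5 and 37.7 FPKM in WT libraries. It was the most even of the 34 across libraries, with a within-group SD of 0.037 on the log2 scale, and a fall of more than 1.13-fold or a rise of more than 1.07-fold lay outside its interval. Bysl (chr17:47599331-47611492, minus strand), a late assembly factor, had 8.73, 9.20 and 6.78 FPKM in Bach2-cKO libraries, against 6.22, 6.07 and 7.98 FPKM in WT libraries. This was the largest positive log2 fold change among the members, 0.25 with an interval of -0.089 to 0.59 (limma adjusted p = 0.291), and the groups overlapped. Bysl overlaps Ccnd3, a cyclin gene on the opposite strand at a mean of 94.7 FPKM, and without strand in the counting reads of the 2 genes cannot be told apart.

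Among early small subunit factors, Nop14, Rrp9, Wdr43, Heatr1 and Ddx10 had log2 fold changes between -0.044 and 0.044, with intervals that all lay between -0.26 and 0.26. Utp20, a further early factor, had 7.30, 7.62 and 6.40 FPKM in Bach2-cKO libraries, against 6.25, 5.47 and 7.22 FPKM in WT libraries, with a log2 fold change of 0.15. Rrp12, known in yeast as an export factor of pre-ribosomal particles, had a log2 fold change of 0.14 and Tsr1, a late assembly factor, of 0.090, with rises of more than 1.37-fold and 1.33-fold outside their intervals. Of 39 other small subunit factors tested, 0 rose and 0 fell in limma and 0 in limma-voom, with 2 lower and 0 higher at an unadjusted p under 0.05, and all 39 intervals lay within 1.5-fold. Noc4l rose without Bach2-cKO replicate 3 (limma adjusted p = 0.0425) and Pno1 without WT replicate 3 (limma adjusted p = 0.0476). The 4 with the smallest p were Utp3, Rrp7a, Aatf and Krr1, with log2 fold changes of -0.16, -0.15, -0.17 and 0.15 and a limma adjusted p of 0.128 to 0.168.

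Of 9 members that build the large subunit, none passed and all 9 intervals lay within 1.5-fold. Pes1, Bop1 and Wdr12 form the PeBoW complex, which is needed to process large subunit RNA, and their log2 fold changes were 0.0019, -0.032 and -0.18. Wdr12 averaged 13.6 ± 1.52 FPKM in Bach2-cKO libraries and 15.5 ± 0.476 FPKM in WT libraries (SD, n = 3 each; limma adjusted p = 0.240). Its groups did not overlap, and the Bach2-cKO libraries varied more than the WT libraries. Nop16 was the most variable member, at 30.6, 31.3 and 20.3 FPKM in Bach2-cKO libraries, against 24.7, 32.7 and 27.3 FPKM in WT libraries. Its within-group SD was 0.28 on the log2 scale and its interval ran from -0.46 to 0.35.

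The other large subunit members lay between these. Ppan, a maturation factor, had a log2 fold change of -0.16, the nucleostemin gene Gnl3 of -0.088, the RNA methyltransferase gene Nop2 of 0.020, Rrs1, known in yeast to help place the ribonucleoprotein of the smallest ribosomal RNA, of 0.088 and the nucleolar protein gene Rrp1b of 0.095. Of 43 other large subunit factors tested, 0 rose, 1 fell and 42 did not pass, with a median log2 fold change of -0.027 and all 43 intervals within 1.5-fold. Which of these genes passed depended on the setting: 1 rose and 0 fell with median-ratio scaling, and 1 rose and 1 fell with limma-voom. The gene that fell was Las1l, an endonuclease of ribosomal RNA spacers, at 19.9 ± 1.85 FPKM in Bach2-cKO libraries and 24.8 ± 0.789 FPKM in WT libraries (SD, n = 3 each; log2 fold change -0.30, limma adjusted p = 0.0492). The call was lost without any library but Bach2-cKO replicate 3, with a limma adjusted p of 0.0905 to 0.136. Gnl3l, Nip7 and the gene listed as Gltscr2 had log2 fold changes of 0.21, -0.25 and -0.19 and a limma adjusted p of 0.0534, 0.0618 and 0.0800. Gnl3l was the gene that rose with median-ratio scaling (limma adjusted p = 0.0399), where Las1l did not pass (0.0589), and also with limma-voom (0.0472).

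Libraries of the same group differed in the level of the whole list. In Bach2-cKO replicate 3 all 34 members lay below their own mean over the 6 libraries, against 51.5% of all tested genes, and 22 of the 34 were at their lowest there, against 15.7% of all tested genes. On the log2 scale the members' median deviation from their own means was 0.044, 0.097 and -0.16 over Bach2-cKO replicates 1 to 3. Over WT replicates 1 to 3 it was -0.068, 0.037 and 0.091. In WT replicate 1, 27 of the 34 lay below their own mean, against 48.7% of all tested genes. The median deviation of all tested genes lay between -0.011 and 0.018 in every library. The summed FPKM of the 34 genes was 2191, 2252 and 1889 in Bach2-cKO libraries, against 2040, 2165 and 2331 in WT libraries. The lowest sum thus belonged to Bach2-cKO replicate 3 and the highest to WT replicate 3. Over the single genes, the deviation in Bach2-cKO replicate 3 ran from -0.59 for Myc to -0.010 for Nob1.

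**Figure D4:**
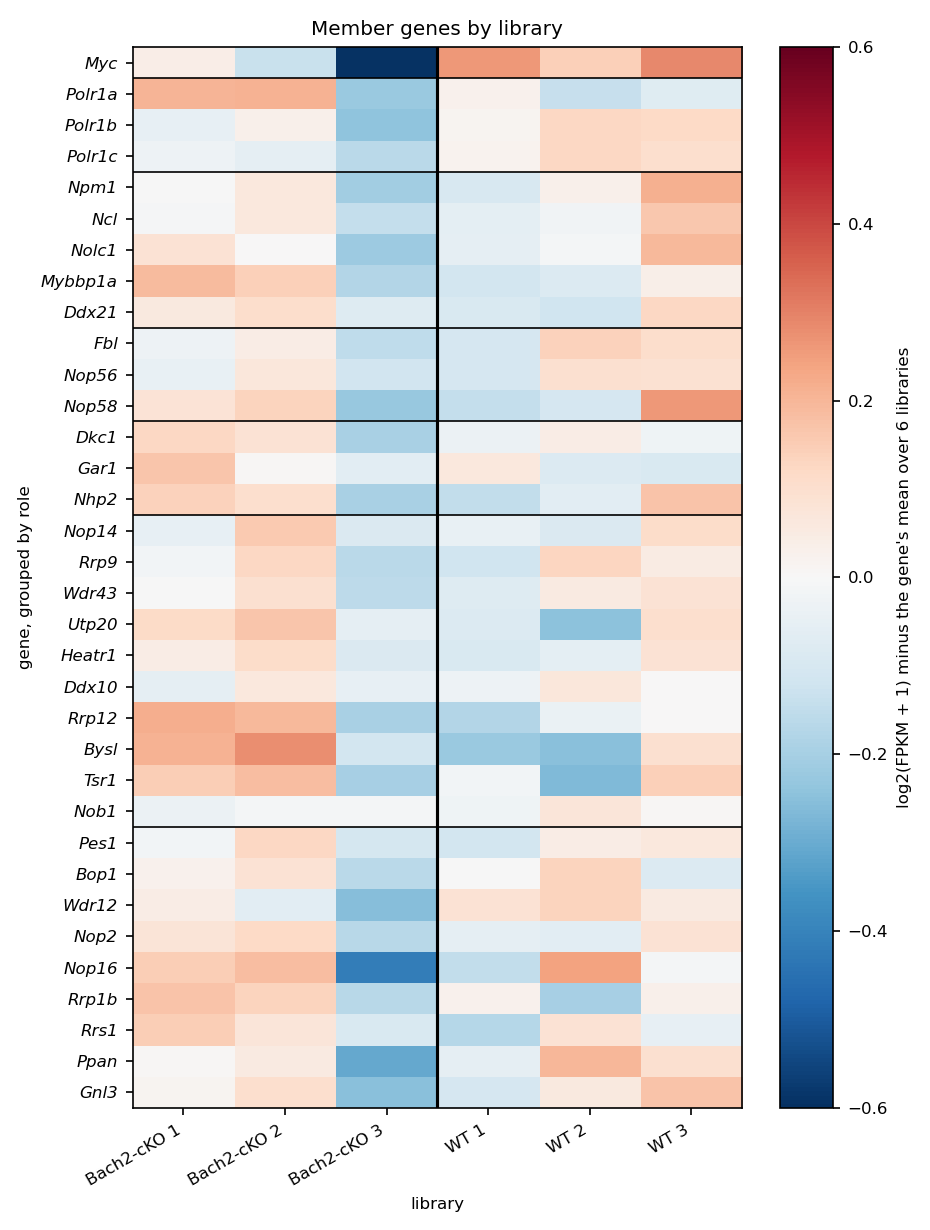
Deviation of each member gene in each library from its own mean over the 6 libraries, on the log2(FPKM + 1) scale (colour), with genes in rows grouped by role and libraries in columns. The column of Bach2-cKO replicate 3 is below the mean for all 34 genes.

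Leaving out Bach2-cKO replicate 3 moved the members' median log2 fold change to 0.057, from -0.018 with all libraries, and 8 of the 34 changed sign. Polr1a then passed the test as the 1 member called higher, where 1200 of all 13571 tested genes were higher and 1378 lower. In that fit 33 of the 34 intervals lay within 1.5-fold. Leaving out any other single library gave a median of -0.064 to 0.0045.

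Cell cycle genes and ribosomal protein genes were also below their own means in Bach2-cKO replicate 3 at the median. For 40 cell cycle genes the median deviation was 0.48, 0.33 and -0.18 over Bach2-cKO replicates 1 to 3, and -0.36, -0.29 and 0.064 over WT replicates 1 to 3. None of these 40 genes passed in limma, with 18 higher and 0 lower at an unadjusted p under 0.05 and 3 higher with limma-voom. Their median log2 fold change was 0.42. Leaving out Bach2-cKO replicate 3 gave 0.63, with 29 higher, and leaving out WT replicate 3 gave 0.56, with 3 higher. For 79 cytosolic ribosomal protein genes the median deviation was -0.035, 0.0052 and -0.20 over Bach2-cKO replicates 1 to 3, and -0.017, 0.14 and 0.13 over WT replicates 1 to 3. Their median log2 fold change was -0.17, with 75 of 79 negative, 0 that rose and 2 that fell. At an unadjusted p under 0.05 in limma, 23 of the 79 were lower and 0 higher, against 17.0% of all tested genes lower. For 29 of the 79 the groups did not overlap with Bach2-cKO lower, against 20.1% of all tested genes. With limma-voom 7 fell and with quantile normalization 6. The count that fell was 0 without Bach2-cKO replicate 1, Bach2-cKO replicate 3, WT replicate 1 or WT replicate 3 and 1 without WT replicate 2, and 1 rose without WT replicate 1. The members' median of -0.018 lay between those of the cell cycle and ribosomal protein lists; the difference between lists was not tested.

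Genes known as MYC targets outside ribosome synthesis moved both ways. Of 40 tested, 6 rose, 3 fell and 31 did not pass, with a median log2 fold change of 0.050. Over all tested genes 7.02% rose and 8.31% fell. Slc7a5, a chain of the large neutral amino acid transporter, had 149.0, 170.8 and 165.9 FPKM in Bach2-cKO libraries, against 98.2, 102.4 and 81.8 FPKM in WT libraries. Its groups did not overlap (log2 fold change 0.78, SE 0.097, limma adjusted p = 0.00250). Shmt2 and Mthfd2, mitochondrial enzymes of the folate cycle, rose by 0.62 and 0.43 on the log2 scale (limma adjusted p = 0.00427 and 0.00704). Other folate genes went otherwise: Shmt1, the cytosolic counterpart of Shmt2, fell by 0.36 (limma adjusted p = 0.0329), and Mthfd1 had a log2 fold change of 0.064 (limma adjusted p = 0.817). Slc19a1, the reduced folate carrier, fell to 17.0 ± 1.22 FPKM in Bach2-cKO libraries, against 22.8 ± 0.740 FPKM in WT libraries (SD, n = 3 each; log2 fold change -0.41, limma adjusted p = 0.0131). These 4 calls held in 15 of 16 alternatives. When the B cell score was added none of the 4 passed, with log2 fold changes of 0.56 for Slc7a5, 0.34 for Shmt2, 0.29 for Mthfd2 and -0.52 for Slc19a1 (limma adjusted p of 0.183 to 0.334). In that fit 30 genes of the whole table were higher and 35 lower, against 967 and 1144 without the score. The score followed the groups, so calls lost in that fit cannot be assigned to B cells. The count that rose was 3 without WT replicate 1 and 4 to 8 without any other library, and the count that fell was 2 without Bach2-cKO replicate 1 or 3 and 1 without Bach2-cKO replicate 2, WT replicate 1, WT replicate 2 or WT replicate 3.

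**Figure D5:**
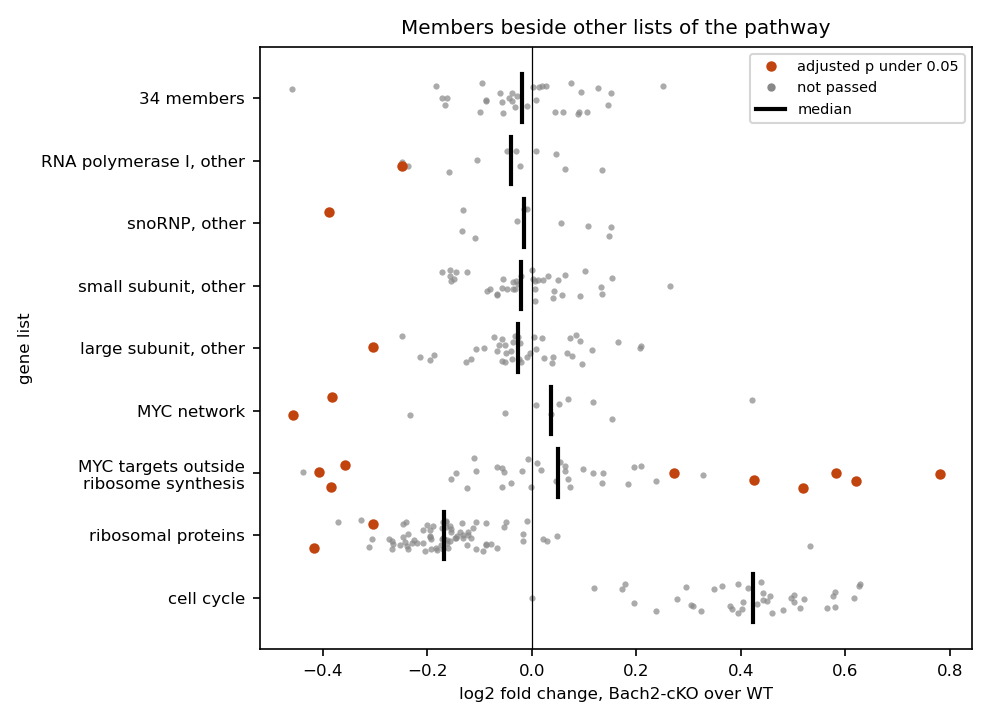
Log2 fold change, Bach2-cKO over WT, of each tested gene (points) in the member list and in 8 other lists, with genes that passed the test in orange and the median of each list as a black bar. The members and the other ribosome biogenesis lists sit around 0, the ribosomal protein genes have a median of -0.17 and the cell cycle genes of 0.42.

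Over the 4 other ribosome biogenesis lists together, 105 of 107 genes were tested, 0 rose, 3 fell and 102 did not pass, with a median log2 fold change of -0.026. With median-ratio scaling 1 rose and 1 fell, and with limma-voom 1 rose and 2 fell. Leaving out 1 library gave 1 rise without Bach2-cKO replicate 3 or WT replicate 3 and 0 otherwise. The falls were then 2 without Bach2-cKO replicate 3, 1 without Bach2-cKO replicate 1 and 0 without any other library. The intervals of 104 of these 105 lay within 1.5-fold, against 66.0% of all tested genes. Among tested genes with a mean of at least 5 FPKM, a level not all of the 105 reached, the share was 77.2%. Since FPKM is relative to the library total, a change in RNA per cell that all genes share would leave these values as they are, and none of the intervals speaks to it.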

How the data were processed

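Poly(A) RNA of 6 libraries was measured by sequencing. Per the submitters' processing notes, HISAT2 2.0.5, featureCounts 1.5.0-p3 and build mm9 were named; the order, annotation and strand setting are not given there. FPKM per gene and library were deposited by the authors, and all 6 library files equal their columns in the table of the series. Positions equal GENCODE M21 (GRCm38) for 91.5% of 49326 matched genes and are used as GRCm38. FPKM steps gave whole reads for 100% of 28530 genes above 0 (tolerance 0.001 reads). For 11267 of these the length was the annotated one. For the other 17263 the length was the smallest that made the reads of every library whole. Wholeness is therefore no check for those genes, and their reads may be true counts divided by a common factor. Replicates differed by far more than counting noise (chi-square per degree of freedom 10.4 to 23.7).

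The filter kept genes at 1 FPKM or more in 3 or more libraries. Values were taken as log2(FPKM + 1) and compared with limma 3.58.1 (intensity trend, two-sided, no covariate) in R 4.3.3, with Benjamini-Hochberg adjustment over all tested genes and a threshold of 0.05. Fold changes and 95% intervals are on this scale, which understates changes of low genes. The fit was tested on simulated data. The members and lists were chosen with earlier results of these data known. All members were named, and up to 4 genes with the smallest p in each further list of the pathway. Max, Mnt, Noc4l, Pno1, Shmt1, Mthfd1 and single marker genes are named besides, chosen after their values were seen. Alternatives were 2 scalings, voom on recovered reads, a pseudocount of 0.1, 2 filters, 2 variance estimates, the replicate block, a B cell score and leaving out each library. Of the members, 14 overlap another gene with a mean of at least 1 FPKM, 13 of them on the opposite strand, and reads of such genes cannot be told apart if strand was not used. Figures were drawn with Matplotlib 3.10.9.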

Additional observations from a re-analysis of the deposited data

How the results depend on the processing

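With the 6 libraries as given, 0 members were higher and 0 lower. Members called higher were 1 without Bach2-cKO replicate 3 (Polr1a), and 0 without any other single library. Members called lower were 1 with limma-voom on recovered reads and 0 to 1 with a library left out, where the call came without Bach2-cKO replicate 1. Both calls were Myc. Over all tested genes, 1348 of 13766 were lower with limma-voom and 707 of 13561 without Bach2-cKO replicate 1. Without Bach2-cKO replicate 3, 1200 of 13571 were higher. The count of members with an interval within 1.5-fold was 31 to 33 with a library left out and 17 with the B cell score added, and the cause was not tested; it was 32 with all libraries and in the other 9 alternatives. The members' median log2 fold change over the 16 alternatives ran from -0.092 with the B cell score to 0.057 without Bach2-cKO replicate 3. Over the 34 members and 16 alternatives, 527 log2 fold changes moved by less than the within-group SD, 14 by more, and 3 gained a call. The labels do not say whether the numbers 1 to 3 pair the libraries. Same-numbered libraries correlated at -0.053, 0.0058 and -0.21 in their deviations from the group means. With 3 libraries a group these values cannot settle whether they are paired. With the replicate block, 625 genes were higher and 657 lower over the whole table, against 967 and 1144 without it, and 0 members passed in either direction; of the other ribosome biogenesis genes 0 rose and 0 fell, with Rpap3 at a limma adjusted p of 0.0837. Without a filter 501 genes were higher and 681 lower. Each member had at least 607 recovered reads per library. Each interval rests on 3 libraries a group and on the spread between them. The members' within-group SD ran from 0.037 to 0.28 on the log2 scale.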
